A study of Mus musculus with 16 samples.

Results

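The active-chromatin mark H3K27ac (histone H3 acetylated at lysine 27) was compared between the most mature and the earliest epithelium of a mouse small-intestine series: adult enterocytes and the gut epithelium of E12.5 embryos. Regions were made by merging overlapping or touching peaks of the 2 enterocyte and the 2 E12.5 peak lists, which gave 67621 regions. A region was called gained when both enterocyte libraries and neither E12.5 library had a peak in it, and lost in the reverse case. By this rule 9258 regions were gained and 16044 were lost, 25302 in all.

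The series holds 8 ChIP libraries in 4 groups of 2: enterocytes and Lgr5-positive intestinal stem cells (ISC) of adults, and epithelium of E14.5 and E12.5 embryos, all of a mixed C57BL/6 and CD1 background per the labels. The adults were Lgr5EGFP-Cre-ERT males of postnatal day 60, an allele the enterocyte donors carried as well as the ISC donors. The sources used here do not give the embryos' sex. Enterocytes and embryonic cells were sorted alive as EpCAM+ (an epithelial surface protein), CD31− (endothelium) and CD45− (leukocytes). This gate takes epithelium as a whole and does not separate enterocytes from other epithelial cells. ISC were sorted for high EGFP from the Lgr5 locus. The series calls each pair biological duplicates.

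H3K27ac lies on active promoters and enhancers, and its pattern differs between cell types more at enhancers than at promoters. At E12.5 the gut tube is lined by a proliferating epithelium without villi. By E14.5 villi are about to form. In the adult, Lgr5-positive stem cells at the crypt base renew the epithelium, and enterocytes are the absorptive cells that cover the villi. The files name no genes and no annotation of their build, mm9, was used, so regions are given by position. For the same reason the cell labels were not checked against marker genes, and fewer cells carrying a mark cannot be told apart from less of the mark per cell.

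The enterocyte libraries had 36439 and 35614 peaks, against 46710 and 52510 in the E12.5 libraries. Their peaks covered 38.8 Mb each in enterocytes, against 43.6 and 59.99 Mb in E12.5. The ChIP libraries held 42.2 and 34.6 M tags in enterocytes, against 37.9 and 40.4 M in E12.5. Fewer peaks in enterocytes thus did not go with fewer tags in both libraries. E12.5 replicate 2 covered more length than replicate 1, and ISC replicate 2 (76.1 Mb) more than ISC replicate 1 (51.2 Mb), which bears on the counts that use them.

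The gained regions were 13.7% of all regions and the lost regions 23.7%. A further 13566 regions (20.1%) had a peak in all 4 libraries, and 28753 (42.5%) had a peak in part of a group. These shares describe the lists and come with no test, since 2 against 2 libraries cannot give an exact permutation p under 0.333. Of the regions in a single library of 1 group and none of the other, 8436 were in enterocytes and 16412 in E12.5. With the same number of peaks taken from each of the 4 libraries, gained regions numbered 10197 and lost regions 10769. With 1 library in a group, and so 1 peak needed instead of a pair, gained regions numbered 15333 without enterocytes replicate 1 and 16463 without replicate 2. Lost regions numbered 31744 without E12.5 replicate 1 and 25219 without replicate 2.

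Just outside the rule, 1374 regions had peaks in both enterocyte libraries and 1 E12.5 library. The E12.5 peak was in replicate 2 for 1251 of them and in replicate 1 for 123. These regions had a median covered length of 976 bp in enterocytes and 388 bp in the E12.5 library, while the gained regions had a median of 709 bp in enterocytes. On the other side, 1929 regions had peaks in both E12.5 libraries and 1 enterocyte library. The enterocyte peak was in replicate 2 for 1438 and in replicate 1 for 491. Their median was 362 bp in the enterocyte library and 1010 bp in E12.5, while the lost regions had a median of 716 bp in E12.5.

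Most changed regions were short and of moderate strength. Mean covered length in the group that had the region reached 2923 bp at the 95th percentile of gained regions and 2961 bp at that of lost regions. It passed 2 kb in 1094 gained regions (11.8%) and 1935 lost regions (12.1%). Regions with a peak in all 4 libraries had longer peaks, with a median of 1311 bp in enterocytes and 1726 bp in E12.5. Each region was also ranked by the −log10 q of its best peak, as a percentile of that library's list. The median percentile was 44.1 for gained and 47.0 for lost regions, against 77.1 in enterocytes and 83.1 in E12.5 for regions in all 4.

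The strongest regions were mostly shared. Of 7061 regions at or above the 75th percentile in both enterocyte lists, 499 (7.07%) were gained and 6361 (90.1%) had a peak in all 4 libraries. Of 9871 such regions in both E12.5 lists, 1285 (13.0%) were lost and 8117 (82.2%) had a peak in all 4. Among the weakest regions the picture was the opposite. Of 1182 regions under the 25th percentile in both enterocyte lists, 905 (76.6%) were gained, and of 1311 such regions in both E12.5 lists, 1152 (87.9%) were lost. These sets hold only regions with a peak in both libraries of a group, so shares of all regions are not their base. For enterocytes that base was 9258 gained regions, 13566 in all 4 libraries and 1374 with 1 E12.5 library. For E12.5 it was 16044 lost regions, 13566 in all 4 and 1929 with 1 enterocyte library. A region takes the rank of its best peak, which favours regions with several peaks. A weak peak is easily missed in another library, and how far this set the calls was not tested.

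The intermediate groups placed the changes along the order E12.5, E14.5, ISC and enterocytes. ISC and enterocytes came from adults of the same age, so the step between them is one of cell type and not of time. Gained regions had a peak in 32.2% and 27.8% of cases in the E14.5 libraries, and in 50.6% and 67.2% in the ISC libraries. Lost regions still had one in 76.2% and 68.6% of cases in the E14.5 libraries and in 29.6% and 43.2% in the ISC libraries. The 2 ISC libraries differed by more than the 2 E14.5 libraries, and ISC replicate 2, with the larger covered length, had the higher share in both classes. Regions with a peak in all 4 libraries had one in at least 97.8% of cases in each intermediate library.

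**Figure D1:**
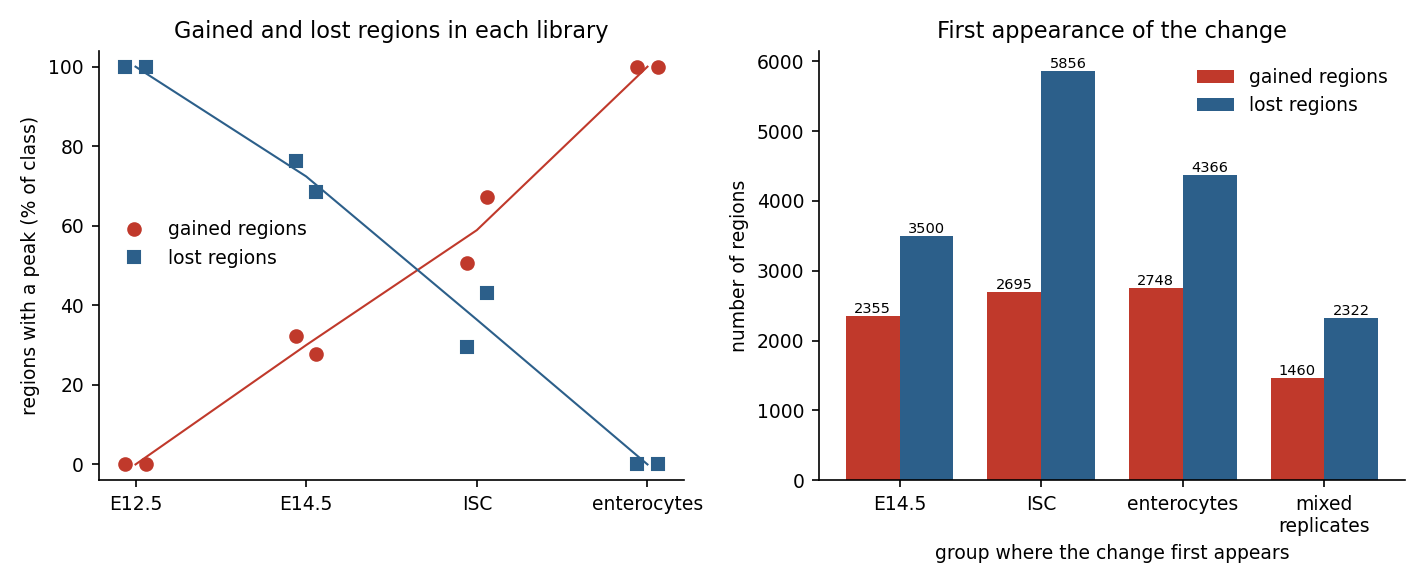
Left, share of gained (red circles) and lost (blue squares) regions with a peak in each of the 2 libraries of a group, in percent, with lines through the group means; E12.5 and enterocytes are fixed at 0 or 100% by the rule. Right, number of regions by the group where the change first appears. ISC holds 5856 first absences and enterocytes 4366, an order that turns under the settings given in the text. Gains divide between E14.5 (2355), ISC (2695) and enterocytes (2748), and the last 2 depend on which ISC library is used.

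A gained region was said to appear first at E14.5 when both E14.5 libraries had it, otherwise at ISC when both ISC libraries had it, and in enterocytes when none of these 4 libraries had it. Gains were spread over the 3 steps: 2355 regions (25.4%) appeared at E14.5, 2695 (29.1%) at ISC and 2748 (29.7%) in enterocytes. The remaining 1460 (15.8%), called in part of an intermediate group, had a peak in some of these libraries but in both of neither group. The other classes are not free of mixed replicates: 567 of the regions that appeared at ISC also had a peak in 1 E14.5 library. Of the 2355 regions that appeared at E14.5, 1960 also had a peak in both ISC libraries, 248 in 1 of them and 147 in neither, a gap in this order of groups. Without ISC replicate 1, 4018 gains appeared at ISC and 2768 in enterocytes, and without ISC replicate 2, 2718 and 3909. Which of these 2 steps held more gains thus depended on the ISC library used.

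By these rules most changes of both classes came after E14.5. Of the lost regions, 10679 (66.6%) still had a peak in both E14.5 libraries, and 6057 gained regions (65.4%) had one in neither. A gain counts at E14.5 only with a peak in both of its libraries, and a loss only with a peak in neither. Of the lost regions, 3500 (21.8%) were already absent from both E14.5 libraries, 5856 (36.5%) were first absent from both ISC libraries, and 4366 (27.2%) were still present in all 4 intermediate libraries. The remaining 2322, called in part of an intermediate group, had a peak in each intermediate group but not in all 4 libraries. Of those first absent from ISC, 1395 had a peak in only 1 E14.5 library. With peaks of −log10 q of 10 or more alone, 2630 were first absent from ISC and 2809 from enterocytes, with a peak in 1 library of a group enough for presence, 5856 and 6688, and without ISC replicate 1, 5890 and 6187. Which of these steps held more losses thus depended on the setting. Of the 3500 absent at E14.5, 3223 were absent from both ISC libraries too, 161 had a peak in 1 of them and 116 had a peak in both.

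Length and strength differed between these classes. Gained regions that appeared at E14.5 had a median region length of 1195 bp, those from ISC 1006 bp and those from enterocytes 703 bp. Their median percentiles in the enterocyte lists were 54.2, 48.0 and 36.4. Among lost regions the order ran the other way, with 636 bp for those absent from E14.5, 1026 bp from ISC and 1178 bp for those absent from enterocytes alone. Their median percentiles in the E12.5 lists were 32.1, 48.3 and 59.2. Regions in part of an intermediate group had a median length of 818 bp and a median percentile of 40.4 among gains, and 914 bp and 47.4 among losses. Any peak inside a region, however short, counted as presence, and a longer region leaves more room for one. By the rule alone, longer gained regions thus tend to appear earlier and longer lost regions to be absent later. The orders of length therefore cannot be read as a property of the steps. How far this rule, or weak peaks missed in single libraries, took part in these differences was not tested.

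The edges of a region were set by the enterocyte and E12.5 lists alone. Peaks of E14.5 and ISC count only inside them and can hardly exceed those of the group that had the region. Length was ranked by the smaller of the 2 covered lengths of the group that had the region, and the heat map of the 10 longest of each class gives their peak length in every library. The first by this measure, at chr16:21852495-21863256, held 10.4 and 10.6 kb of peak in enterocytes and none in E12.5. It held 3.28 and 3.43 kb in the E14.5 libraries and 4.90 and 8.79 kb in ISC, so the length inside its edges rose from group to group. The region at chr12:103916688-103927275 held 10.6 and 10.2 kb in enterocytes, none in E12.5, 2.66 and 1.70 kb in E14.5 and 7.41 and 9.78 kb in ISC. The region at chr18:21258055-21269880, ranked after these, was longer by mean covered length (10.9 kb), with 11.7 and 10.03 kb in enterocytes and none in E12.5. It held 2.71 and 3.04 kb in E14.5 and 6.26 and 7.83 kb in ISC. Of the 10 longest gained regions, 7 appeared at E14.5 and 3 at ISC, though long regions leave more room for an intermediate peak.

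The ISC class was led by chr9:44478921-44488988, with 9.57 and 9.78 kb in enterocytes, none in E12.5 or E14.5, and 1.75 and 5.18 kb in ISC. At chr4:148157414-148166165 the ISC libraries, with 7.31 and 8.40 kb, came close to the 8.71 and 8.55 kb of enterocytes, while both embryonic groups had none. The longest region found in enterocytes alone, chr11:55026425-55032630, held 5.71 and 5.34 kb in enterocytes and none in the other 6 libraries. The next, chr19:32131627-32137208, held 5.52 and 5.06 kb in enterocytes and none elsewhere. These regions were about as wide in both enterocyte replicates, which ranking by the smaller of the 2 lengths favours.

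**Figure D2:**
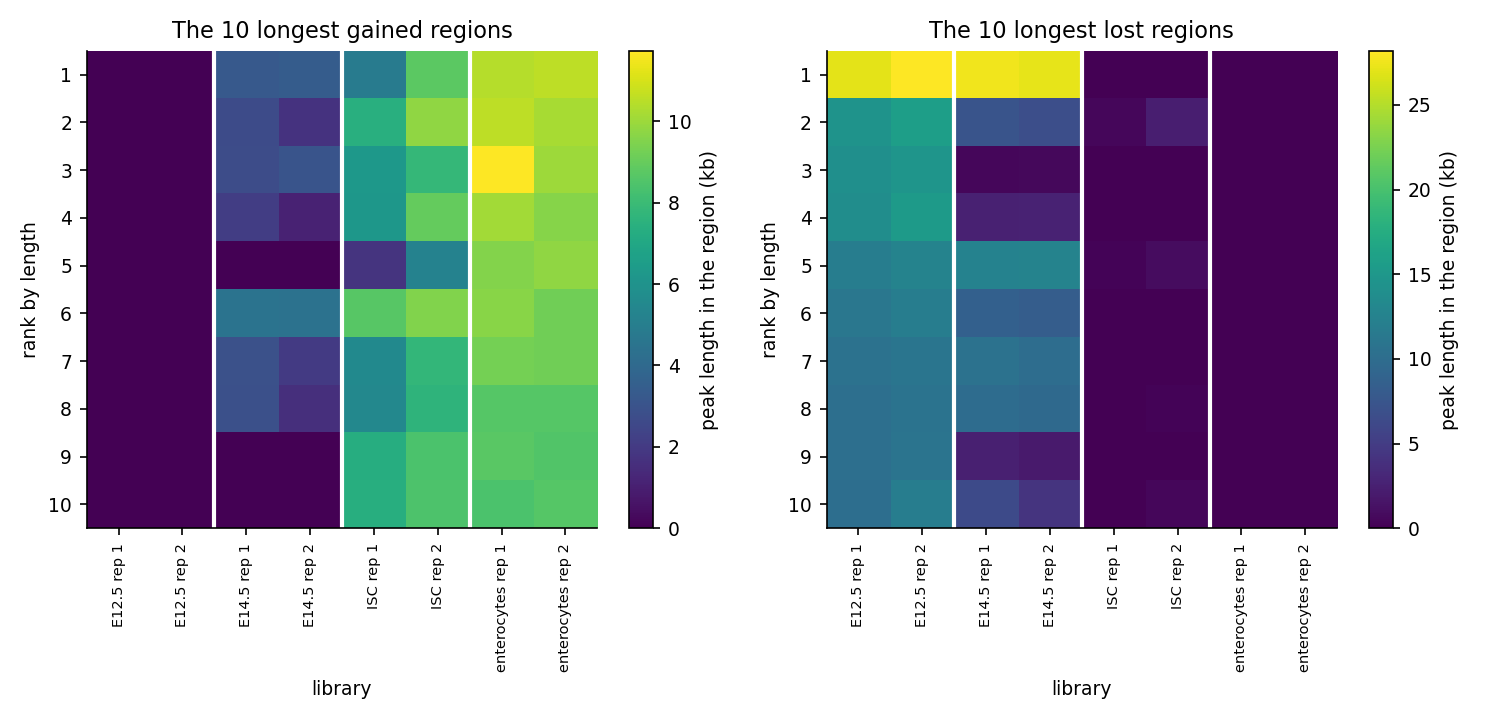
Peak length in kb (colour, each panel with its own scale) of the 10 longest gained regions (left) and the 10 longest lost regions (right) in the 8 libraries, ordered by stage; rows are ranked by the smaller of the 2 covered lengths of the group that has the region. The gained regions were empty in E12.5 by the rule and, by group mean, longest in enterocytes with ISC between. Their edges come from enterocyte peaks and other peaks count only inside them, so ISC could hardly be longer. The lost region of rank 1 was as long in E14.5 (27.6 and 27.1 kb) as in E12.5 (27.01 and 28.2 kb).

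The lost regions reached greater lengths. The longest, chr7:149737366-149765568, held none in enterocytes and 27.01 and 28.2 kb in E12.5. It kept 27.6 and 27.1 kb in E14.5 and had none in ISC, so the whole stretch was present in both embryonic groups and absent from both adult groups. The region at chr6:49168195-49179161 had the same pattern, with none in enterocytes, 10.7 and 10.97 kb in E12.5, 10.7 and 10.1 kb in E14.5 and none in ISC.

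Other long losses began earlier. At chr7:6801227-6815970 there was none in enterocytes and 14.04 and 14.7 kb in E12.5, but only 0.488 and 0.583 kb in E14.5 and none in ISC. At chr13:28744950-28760607 there was none in enterocytes and 13.8 and 15.4 kb in E12.5, with 2.60 and 2.67 kb in E14.5 and none in ISC. Both counted as first absent from ISC, although most of their length was already missing at E14.5: presence alone hides a partial loss. The longest region absent from E14.5 onward, chr5:117116821-117125525, held none in enterocytes and 8.03 and 8.59 kb in E12.5, and none in the E14.5 and ISC libraries.

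A trace remained in ISC at some. The region at chr16:18172837-18188622 held none in enterocytes and 14.53 and 15.8 kb in E12.5, and 7.27 and 6.74 kb in E14.5 and 0.527 and 2.35 kb in ISC. At chr8:111250566-111260976 there was none in enterocytes and 9.65 and 10.4 kb in E12.5, with 10.1 and 9.46 kb in E14.5 and 0.432 and 1.69 kb in ISC. Both were therefore counted as first absent from enterocytes, on far less peak length inside the region in ISC than in the embryonic groups.

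Regions of a class lay closer to each other than to regions of the other class. The median distance from a gained region to the nearest other gained region was 1.67 kb, and to the nearest lost region 58.1 kb. From a lost region it was 5.53 kb to the nearest other lost region and 150.0 kb to the nearest gained one. A gained region had another within 10 kb in 68.2% of cases, and a lost one within 10 kb in 10.8%. A lost region had another lost region within 10 kb in 57.7% of cases, and a gained one in 5.61%. To the nearest region with a peak in all 4 libraries the median distance was 12.9 kb from gained regions (43.6% within 10 kb) and 43.2 kb from lost regions (23.8%). Neighbouring regions can be parts of 1 broad domain that the peak caller divided.

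Fixed stretches of 100 kb were ranked by the summed length of their gained or lost regions, each taken as the smaller of the 2 covered lengths. The first for gains, with 26.2 kb in all, at chr6:86500001-86600000, held 17 gained regions and no lost one. Its peaks covered 31.5 and 26.8 kb in enterocytes and none in E12.5, with 3.84 and 2.78 kb in E14.5 and 7.80 and 14.1 kb in ISC. The stretch at chr15:97700001-97800000 held 15 gained regions and covered 35.6 and 33.7 kb in enterocytes, against 1.11 and 2.83 kb in E12.5. There the ISC libraries, with 45.9 and 55.1 kb, were above the enterocyte ones.

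The first for losses, at chr7:149700001-149800000 with 45.8 kb in all, contains the longest lost region and held 8 lost regions. It covered 0.979 and 0.761 kb in enterocytes and 57.4 and 66.1 kb in E12.5, with 63.8 and 61.0 kb in E14.5 and 0.795 and 1.33 kb in ISC. The next, chr8:35000001-35100000, held 11 lost regions and covered 3.18 and 2.59 kb in enterocytes, against 46.4 and 54.7 kb in E12.5. At chr9:114400001-114500000, also with 11 lost regions, there was none in enterocytes and 32.4 and 39.5 kb in E12.5, with 47.1 and 40.2 kb in E14.5 and 0.914 and 2.13 kb in ISC. Of the 5 leading stretches each way, 4 of gains and 5 of losses held no region of the other class. They were picked for the length of 1 class and the share over all stretches was not computed, so this count shows no separation of the classes.

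By chromosome, the share of gained regions lay between 11.1% and 17.2% on the autosomes and that of lost regions between 19.7% and 25.2%. Chromosome 19 had the highest share gained (17.2%, 388 of 2250) and the lowest lost (19.7%, 444). The X chromosome lay outside both ranges, with 9.85% gained and 30.1% lost (443 of 1472). X peaks made up 1.85% and 1.70% of the enterocyte lists, against 2.27% and 2.24% of the E12.5 lists. The adults were male and the embryos' sex is not stated, so sex and stage cannot be told apart on the X.

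**Figure D3:**
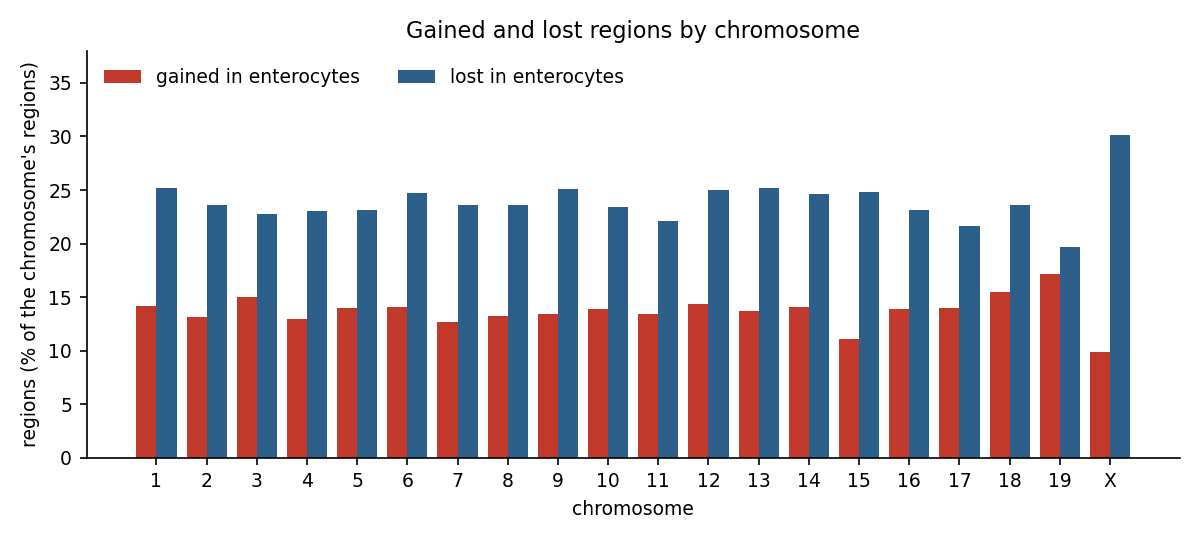
Share of each chromosome's merged regions, in percent, that were gained (red) or lost (blue) in enterocytes against E12.5; each bar pools the 2 libraries of a group through the rule and has no error. The share lost exceeds the share gained on every chromosome shown, with the smallest difference in share on chromosome 19 and the largest on X; with equal peak numbers per library the totals were 10197 gained and 10769 lost, and chromosomes were not compared under that setting.

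Regions with a peak in all 4 libraries could still change in length. Called longer were those whose enterocyte libraries both exceeded both E12.5 libraries with at least a 2-fold mean, and shorter in the reverse case. Of 13566 regions, 1257 (9.27%) were longer and 2723 (20.1%) shorter in enterocytes. The balance depended on total covered length: with lengths scaled to it, 2027 were longer and 1385 shorter. Without E12.5 replicate 2, 1962 were longer and 1965 shorter.

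At chr1:169303939-169325073 peaks covered 19.9 and 20.4 kb in enterocytes, against 2.11 and 3.36 kb in E12.5, the largest increase of mean length (17.4 kb). The E14.5 libraries held 14.01 and 13.01 kb and the ISC libraries 19.9 and 20.9 kb, so most of the widening was already present at E14.5. At chr16:38280719-38296874 the values were 15.0 and 14.7 kb in enterocytes, against 0.525 and 1.53 kb in E12.5, with 5.98 and 4.68 kb in E14.5 and 14.8 and 15.4 kb in ISC. The next, chr9:46035330-46053451, held 18.0 and 17.9 kb in enterocytes, against 4.54 and 9.07 kb in E12.5. It was wide at E14.5 (15.9 and 16.0 kb) and narrower in ISC (5.76 and 10.6 kb).

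The largest decrease was at chr15:78671346-78691188, with 3.66 and 6.19 kb in enterocytes, against 19.1 and 19.8 kb in E12.5. ISC kept 18.7 and 18.8 kb there, so this narrowing was seen in enterocytes alone. At chr5:28782129-28797976 enterocytes held 0.789 and 1.23 kb, against 15.0 and 15.8 kb in E12.5, and ISC was already narrow at 1.25 and 3.09 kb. At chr17:14302456-14316890 enterocytes held 0.801 and 1.06 kb, against 13.97 and 14.4 kb in E12.5, while 1 ISC library had none and the other 0.353 kb.

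A test across the genome used fixed windows of 20 kb. Peak length per window was scaled by each library's total, put on the scale log2(length + 500 bp) and fitted with limma over all 8 libraries. Of 30728 windows, 6616 (21.5%) had more and 11645 (37.9%) less peak length in enterocytes than in E12.5 at a Benjamini-Hochberg adjusted p under 0.05. The median difference over all windows was −0.26, and −0.43 without scaling, where 4824 windows had more and 12375 less. Windows need a peak in only 2 libraries to be tested, so a window could pass through 1 group alone.

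**Figure D4:**
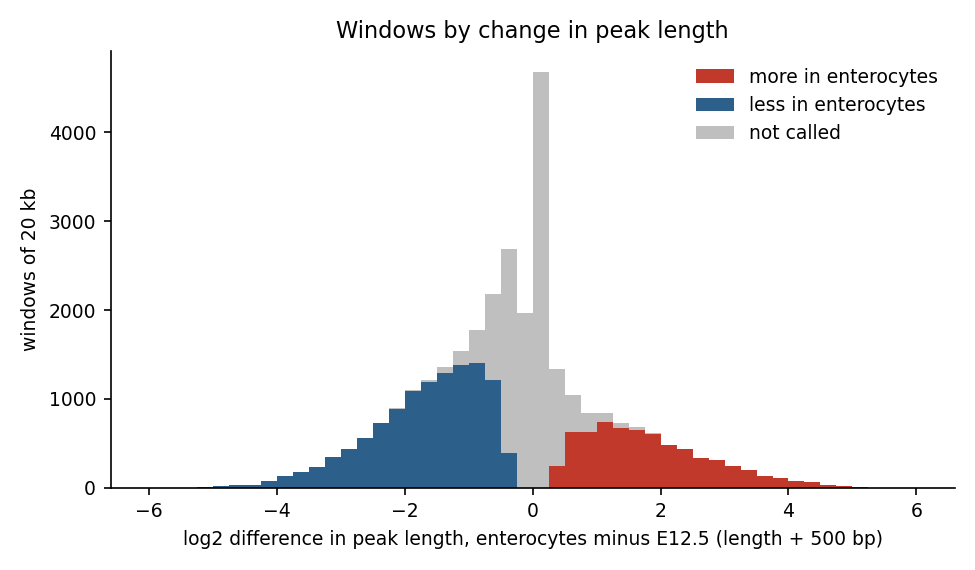
Number of 20 kb windows by log2 difference in peak length, enterocytes minus E12.5, after adding 500 bp, stacked by limma call at an adjusted p under 0.05: more in enterocytes (red), less in enterocytes (blue) or not called (grey). The 11645 windows with less peak length outnumber the 6616 with more.

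The largest increase among windows was at chr4:137900001-137920000, with 16.02 and 13.98 kb in enterocytes and none in E12.5. E14.5 had none there either and ISC held 5.62 and 8.87 kb. The fitted log2 difference was 5.41 ± 0.10 (SE; limma adjusted p = 1.2e-05), a value set in part by the added 500 bp because E12.5 was at 0. With 100 bp added it was 7.70 and with 2000 bp 3.51. E12.5 and E14.5, both at 0, showed no spread in this window, which lowers the pooled SE and its p-value. At chr12:78040001-78060000 there were 16.4 and 12.12 kb in enterocytes and none in E12.5, with 1.28 and 0.676 kb in E14.5 and 1.53 and 3.63 kb in ISC. At chr11:54740001-54760000 there were 13.6 and 11.9 kb in enterocytes and none in E12.5, with 3.63 and 2.97 kb in E14.5 and 6.02 and 11.2 kb in ISC.

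The largest decrease, at chr7:149740001-149760000, lay inside the longest lost region, with none in enterocytes and 19.9 and 20.0 kb in E12.5 (log2 difference −5.43 ± 0.16, SE; limma adjusted p = 1.2e-05). With enterocytes at 0 this value too depends on the added length, and was −7.72 with 100 bp and −3.52 with 2000 bp. Its SE and p-value are likewise lowered by groups without spread, here enterocytes and ISC, both at 0. At chr6:49160001-49180000 there was none in enterocytes and 18.8 and 19.7 kb in E12.5, with 18.8 and 18.2 kb in E14.5 and 0.357 and 0.953 kb in ISC. At chr8:111240001-111260000 there was none in enterocytes and 16.7 and 17.5 kb in E12.5, and ISC kept 4.04 and 7.81 kb. In these 3 windows E14.5 was about as covered as E12.5. A window holds at most 20 kb, and the chr7 window was at or near this limit in E14.5 too (20.0 and 19.94 kb). A difference between the embryonic groups could hardly show there. At chr9:48600001-48620000 there was none in enterocytes and 14.9 and 16.7 kb in E12.5. There the E14.5 libraries held 6.08 and 4.02 kb, and ISC held none in replicate 1 and 0.261 kb in replicate 2. At chr10:44200001-44220000 there was none in enterocytes and 13.3 and 16.5 kb in E12.5, while E14.5 held 17.5 and 16.7 kb and ISC 1.19 and 1.90 kb.

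Windows and regions rest on the same peaks, so their overlap is a description. By midpoint, 8261 gained regions (89.2%) lay in windows with more peak length and 115 (1.24%) in windows with less. For lost regions, 14046 (87.5%) lay in windows with less and 466 (2.90%) in windows with more. Those few regions changed against the direction of their surroundings.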

How the data were processed

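H3K27ac ChIP-seq peak lists of 8 mouse libraries were used, each called by the authors against its own input. Per the submitters' processing notes the tools were bcl2fastq 1.8.4, Bowtie 1.1.2, SAMtools 1.2 and MACS2, on mm9. Per the file headers, MACS 2.1.0.20140616 called narrow peaks at a q-value of 0.05 from 51 bp tags, keeping 1 tag per position. The deposited lists give each peak's length, pileup signal, −log10 p and −log10 q, and fold enrichment ratio. These scores are the authors' and ranked or filtered peaks only within a list. No counts per region were used, so precision rests on 2 libraries a group. The limma p-values measure the spread between libraries within groups, pooled over all 4 groups and drawn toward that of other windows. A group with no peak in either library of a window adds no spread, which lowers the SE and p-value there.

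A library had a region with at least 1 bp of peak in it. Covered length per 20 kb window was scaled to total covered length, kept with peaks in at least 2 libraries and fitted with limma 3.58.1 (R 4.3.3; trend, robust; 4 group means, 4 residual degrees of freedom). Region calling and the limma step were also run on simulated data, with no outcome given here. No conclusion about groups without peaks, missed weak peaks or divided domains is drawn from that run. The alternatives were stricter peaks, equal peak numbers, other merging, cover, scaling, pseudocounts, filters and windows, a replicate block and each library left out. Named were the 10 longest regions of each class and the 3 longest of each step of change. Named too were the 5 largest changes among shared regions and windows each way, and the 5 stretches with the most gained or lost length. The text describes part of them. The gene loci and marker lists planned as part of this rule are not reported: the supplied gene table is on GRCm38.p6. Loci had at first been placed on mm9 from memory, many by an offset from another build, and analysed. They were discarded with their values, and no printed value rests on them. Members, rules and lists were chosen with earlier results of these data known.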

Additional observations from a re-analysis of the deposited data

How the results depend on the processing

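Keeping peaks with −log10 q of 10 or more gave 5024 gained and 7608 lost regions. Gains then first appeared at E14.5 in 1333, at ISC in 1562, in enterocytes alone in 1293 and in part of a group in 836. Losses were first absent from E14.5 in 1117, from ISC in 2630, from enterocytes alone in 2809 and in part of a group in 1052. Shared regions were longer in 657 and shorter in 1537, and 7143 windows had less peak length. Merging peaks within 1 kb gave 5305 gained regions (1469 from E14.5, 1629 from ISC, 1436 from enterocytes, 771 in part of a group) and 2261 losses absent from E14.5. Equal peak numbers gave 2879 losses absent from enterocytes alone and 1306 in part of a group. Letting 1 library of an intermediate group suffice gave 6688 losses absent from enterocytes alone, and 0 regions of either class in part of a group by construction. A 3-fold difference left 601 longer and 1005 shorter regions, and scaling to total covered length gave 2027 longer and 1385 shorter, which turned the balance. The causes were not tested.

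Leaving out 1 library gave 9387 to 16463 gained regions, highest without enterocytes replicate 2 (15333 without replicate 1). Lost regions numbered 16581 to 31744, highest without E12.5 replicate 1 (25219 without replicate 2). With 1 library left in a group the rule needs 1 peak instead of a pair. Regions in part of an intermediate group numbered 117 to 1305 among gains and 227 to 2063 among losses, lowest when an ISC library was left out. Longer regions numbered 1172 to 1962, highest without E12.5 replicate 2, and shorter regions 1965 to 3757. Windows with more peak length numbered 5823 to 6656 and with less 9026 to 11580.

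The replicate block gave 6487 windows with more and 11290 with less. The labels share numbers only: deviations of same-numbered libraries had correlations of −0.176 to 0.173 between groups. All 31 named regions kept their call with stricter peaks, equal peak numbers and 50% cover. This was nearly fixed in advance: fewer peaks leave the empty group empty, and the regions were picked for long cover by the other group. All 10 named windows kept their call under each setting of the fit with 20 kb windows. That too was nearly fixed in advance, since they were picked as the largest changes among called windows. The planned 50 kb gene window is not reported, since the gene loci it was computed on were discarded.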
